A study of Homo sapiens and Mus musculus with 21 samples.

Results

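The genes described are 33 that drive or guard mitosis, taken by symbol from a fixed list and set among 20052 protein-coding genes of the reference and 58381 genes of the input RNA table. They are the cyclins CCNA2, CCNB1 and CCNB2 with CDK1, the kinases AURKA, AURKB, PLK1, TTK and BUB1, the checkpoint and anaphase-promoting complex proteins BUB1B, BUB3, MAD2L1 and CDC20, and the chromosomal passenger proteins INCENP, BIRC5 and CDCA8. The list goes on with the kinetochore and centromere proteins NDC80, NUF2, SPC25, CENPA and CENPE, and with the motors and spindle proteins KIF11, KIF20A, KIF23, KIF2C, NUSAP1, TPX2 and PRC1. It ends with ESPL1, PTTG1, ANLN, ECT2 and TOP2A, which act in chromosome separation and cytokinesis. All 33 had a position in the reference, so methylated sites and regions could be assigned to each. The RNA tables carry Ensembl identifiers that the files pair with symbols only for genes in the authors' start-class tables. That named 13 of the 33 in the input RNA, 11 in the ribosome-protected fragments and 2 in the SLAM-seq table, while RNA levels of the other 20 are not reported here.

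The study removed PCIF1 from HEK293T, a transformed human embryonic kidney line that divides quickly in culture, and compared knockout (KO) with wild-type (WT) cells. The libraries used here were 1 WT and 2 PCIF1 KO miCLIP libraries, 2 WT and 3 PCIF1 KO libraries each of input RNA and of ribosome-protected fragments, and the authors' single SLAM-seq ratio per gene from 6 libraries of WT and PCIF1 KO cells chased with uridine for 0, 6 and 12 h. miCLIP crosslinks an anti-m6A antibody to RNA and reads methylated adenosines from substitutions and read build-up. The labels name no clone for the KO cells. Nor do they state whether replicates come from separate cultures, and the p-values below therefore reflect library-to-library spread that may be only technical.

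Cells enter mitosis when cyclin B binds CDK1 and the aurora and polo kinases become active. The spindle assembly checkpoint then holds the anaphase-promoting complex, through its activator CDC20, until every kinetochore is attached to the spindle. Release of the checkpoint destroys securin and cyclin B and lets separase cut the cohesin that joins sister chromatids. Transcripts of these genes rise late in the cell cycle, and many of their promoters carry a CHR element (cell cycle genes homology region) and CCAAT boxes that bind NF-Y. PCIF1 methylates the first transcribed adenosine next to the mRNA cap, which turns it into m6Am. The m6A inside transcripts is laid down by the separate METTL3 complex, mostly in the DRACH sequence.

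Of the 33 mitotic genes, 13 (39.4%, exact 95% interval 22.9 to 57.9%) had a region of the authors' strict m6Am list within 50 nt of their start on the same strand. Among all protein-coding genes the share was 8.89% (1783 genes). Where a gene's strand was not known, as for TPX2, a region on either strand was accepted. Each of the 13 regions covered the annotated start itself. The share among 83 other mitotic genes was 34.9% (29 genes) and among 34 S phase genes 35.3% (12 genes). Of 10 quiescence and arrest genes 1 had one (10%), and no gene of the neuronal and renal lineage (10 genes), fibroblast (10) or blood and endothelial (8) marker lists did. VIM, of the lineage list, is nonetheless classed m6Am in the authors' deposited table. The interval covers counting error only, and the part of expression level in these shares was not tested.

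The sequences at the region-bearing starts are shown because m6Am can form only where transcription begins with adenosine. Each line gives 30 bases of RefSeq sequence (GRCh38) in the direction of transcription, 15 of them upstream, with the annotated first base in capitals. RefSeq promoter windows matched 28 of the 33 genes. Of the 13 genes with a region, 10 had a window whose start lay in it, and CDK1 is added for a start discussed with its region.
BUB1: gcggctgcgcggggtAttcgaatcggcggc
INCENP: tcagttttgaaaatcAtagttttcgcccgc
PRC1: aattttgcggggctcAacggctcgcggagc
CENPE: gtcctggccattttcCtgggaccagttcag
TOP2A: aagtggagctctcctAaccgacgcgcgtct
KIF11: gccgagtcgttgcttAgtttctggggattc
MAD2L1: gcctgcgcaaaggacCtgacgacgtgctgc
CCNA2: aacagccgccgctccGgcgggctgctcgct
KIF2C: ttgcgcgcgggatttAaactgcggcggttt
CENPA: gaacgcgagcggcgcGgacttctgccaagc
CDK1: agtttgaaactgctcGcacttggcttcaaa
By these letters the annotated first base was A in BUB1, INCENP, PRC1, TOP2A, KIF11 and KIF2C and another base in CENPE, MAD2L1, CCNA2, CENPA and the second CDK1 start. Of the 11 genes that had both a region and a window, 6 (54.5%) had A as the first base at an annotated start, against 58.3% of 15842 protein-coding genes and 5 of 17 mitotic genes with a window but no region. AURKB is the eleventh gene, and its RefSeq windows begin downstream of its region. The regions are 50 to 150 nt long and do not say which of their bases starts the transcript. The authors' own class tables list CCNA2 as m6Am although its annotated first base is G.

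The regions of highest score were those of BUB1 and of AURKB, BIRC5 and INCENP of the chromosomal passenger complex. The score is the authors', on a scale they do not describe, and it is used only to rank the 2360 regions, whose scores ran from 2.01 to 5.88 with a median of 2.90. BUB1, the checkpoint kinase that marks the inner centromere, had a region at chr2:110677951-110678100 on the minus strand with a score of 5.23, rank 3 of 2360. AURKB, the catalytic kinase of the passenger complex, followed at chr17:8210501-8210600 (minus strand, 4.66, rank 46). Its partners BIRC5 (survivin) at chr17:78214251-78214350 (plus strand, 3.97, rank 225) and INCENP, the complex's scaffold, at chr11:62124001-62124100 (plus strand, 3.77, rank 321) also had regions. CDCA8, which encodes the complex's remaining subunit borealin, had none, and neither did the kinases AURKA, PLK1 and TTK.

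The other 9 regions scored lower. PRC1, which bundles antiparallel microtubules at the midzone, had a region at chr15:90994501-90994550 (minus strand, 3.24). CENPE, a kinetochore motor, had one at chr4:103198301-103198350 (minus strand, 3.13), and TOP2A, the topoisomerase that untangles sister chromatids, one at chr17:40417801-40417950 (minus strand, 3.04). KIF11, the motor that separates spindle poles, followed at chr10:92593101-92593250 (plus strand, 2.93). The region of MAD2L1, the checkpoint protein that binds CDC20, was chr4:120066751-120066850 (minus strand, 2.92), and that of CCNA2, the S and G2 phase cyclin, chr4:121823801-121823950 (minus strand, 2.89). The lowest scores were those of TPX2, the activator of AURKA (chr20:31739251-31739350, on the plus strand, 2.62), KIF2C, a microtubule depolymerase (chr1:44739801-44739900, plus strand, 2.34), and CENPA, the centromeric histone (chr2:26786051-26786150, plus strand, 2.23, rank 2226). The median of the 13 scores was 3.04, and 9 lay above the median of the list. The mitotic genes therefore ran through nearly the whole range of scores.

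CDK1, the kinase at the centre of mitotic entry, stood outside the 50 nt limit. A region at chr10:60778451-60778550 (plus strand, 2.63) began 120 nt downstream of its reference start at 60778331 but covered the start at 60778478 that RefSeq also annotates. At a limit of 200 nt 14 of the 33 genes had a region, and CDK1 was the one added. Of the genes named in the class tables, the authors call AURKB, CCNA2, PRC1, TOP2A and BIRC5 m6Am, and each of these 5 had a region. They class BUB3, CCNB2, CDC20, CDK1, NUSAP1, PLK1 and ESPL1 as starting with A and CCNB1 with C, and none of these 8 had a region within 50 nt. NUSAP1, a microtubule-binding protein, had only a region on the opposite strand, upstream of its start (chr15:41332551-41332600).

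**Figure D1:**
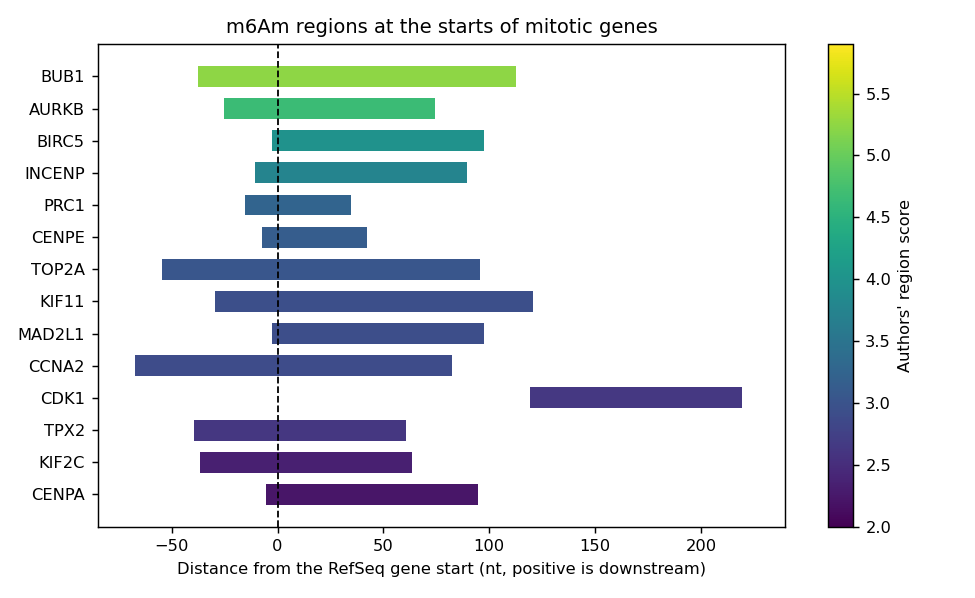
Regions of the strict m6Am list near mitotic gene starts. The horizontal axis is the distance from the reference gene start in nt, each bar spans 1 region, and colour gives the authors' region score. All bars but that of CDK1, which begins 120 nt downstream, cross the start, and BUB1 and AURKB have the highest scores.

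The promoters of these genes shared sequence that the choice of genes did not use. The CHR element was searched as TTTGAA and as its variant TTCGAA, the NF-Y box as CCAAT and a TATA box as TATAAA, on both strands in the 250 bases before each RefSeq start. TTTGAA was found in 16 of 28 mitotic genes (57.1%) against 14.2% of 15842 protein-coding genes. CCAAT was found in 22 of 28 (78.6%) against 40.2%, and CCAAT together with either form of the CHR letters in 14 of 28 (50%) against 6.00%. TATAAA was found in 2 of 28 (7.14%), NUSAP1 and TOP2A, against 11.9%, and TTCGAA in 0 of 28 against 1.74%. A match is a description of the letters and not a bound site. The search ended at the base before the start, so letters across or after the start were not counted. TTTGAA spans the start in SPC25 and, on the other strand, in NDC80. On the other strand it also follows the second start of CDK1, and TTCGAA follows the start in BUB1 and NDC80. Genes with and without an m6Am region both carried the letters: TTTGAA in 5 of 11 and 11 of 17, and CCAAT in 9 of 11 and 13 of 17. Shares among the other mitotic and S phase genes were not counted, so whether the motifs are particular to this set was not tested.

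The 150 bases before the start are printed for 4 genes, INCENP and PRC1 with a region and CCNB2 and PLK1 without one, because in each a TTTGAA lies between the start and a CCAAT. They were chosen after the matches were seen, and the order is not general. Before the start of SPC25 and the upstream starts of ECT2 and CDK1 every CCAAT lies nearer the start than the TTTGAA. In CDC20, TOP2A and CDCA8 the nearest CCAAT lies nearer the start than any TTTGAA. Capitals mark TTTGAA and CCAAT on either strand (TTCAAA and ATTGG on the printed strand where the match is on the other). The stretches are RefSeq GRCh38, chr11:62123861-62124010 (plus) for INCENP, chr15:90994536-90994685 (minus) for PRC1, chr15:59104996-59105145 (plus) for CCNB2 and chr16:23678739-23678888 (plus) for PLK1.
INCENP: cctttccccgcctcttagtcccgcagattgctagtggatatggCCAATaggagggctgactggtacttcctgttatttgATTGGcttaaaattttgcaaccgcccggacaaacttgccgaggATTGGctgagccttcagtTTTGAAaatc
PRC1: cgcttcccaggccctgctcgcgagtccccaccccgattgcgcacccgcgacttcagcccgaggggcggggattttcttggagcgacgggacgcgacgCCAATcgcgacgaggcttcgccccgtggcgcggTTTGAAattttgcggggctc
CCNB2: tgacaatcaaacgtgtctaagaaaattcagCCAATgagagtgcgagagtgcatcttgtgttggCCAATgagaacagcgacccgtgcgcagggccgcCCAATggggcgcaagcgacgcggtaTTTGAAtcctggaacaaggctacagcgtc
PLK1: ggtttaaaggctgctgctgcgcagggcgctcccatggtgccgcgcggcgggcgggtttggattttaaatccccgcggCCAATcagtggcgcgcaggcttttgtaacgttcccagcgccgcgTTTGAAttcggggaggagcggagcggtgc
In CCNB2 and PLK1 the TTTGAA began 29 bases before the annotated start, in PRC1 20 and in INCENP 10. The nearest CCAAT upstream of it began 54 bases before the start in CCNB2, 73 in PLK1, 53 in PRC1 and 28 in INCENP. CDK1 carried a like arrangement before its second start, where TTTGAA lay 13 and CCAAT 46 bases upstream. No motif of the 4 was found before the start in KIF2C, NUF2, CENPE or NDC80, though NDC80 carries CHR letters across and just after its start.

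Mitotic genes also carried internal m6A. Counting DRACH positions that lay in the span of only 1 gene, the lists held 111 positions in mitotic genes in WT, 82 in KO replicate 1 and 128 in KO replicate 2. At least 1 position was listed for 28 of the 33 genes (84.8%, exact interval 68.1 to 94.9%) in WT, 24 (72.7%, 54.5 to 86.7%) in KO replicate 1 and 28 in KO replicate 2. The background share of protein-coding genes was 41.2% in WT, 39.9% in KO replicate 1 and 41.8% in KO replicate 2. That background takes in genes of any expression level, while a position needs reads to be listed. The part of expression level and gene length in these shares was not tested. Among genes with a position the median number was 3.5, 3 and 3.5 in the mitotic genes and 3 in protein-coding genes in each library. With 1 WT library no test of genotype was made, and the median reads at a position in mitotic genes differed between libraries (33, 29.5 and 35).

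The positions were spread unevenly over the genes. ESPL1, which encodes separase, had 11, 4 and 11 positions in WT, KO replicate 1 and KO replicate 2. KIF11 had 10, 7 and 10, TOP2A 8, 10 and 9, TPX2 8, 6 and 6, and CENPE 7, 4 and 17. INCENP had 7, 7 and 6, BIRC5 5, 7 and 6, and CCNB1 6, 3 and 7. NDC80 and SPC25, 2 subunits of the NDC80 complex that holds microtubules, and PTTG1, which encodes securin, had none in any list. NUF2, a further subunit, had 1, 0 and 1. BUB1B, the checkpoint kinase-like protein, had 1 position in KO replicate 1 alone, and its span overlaps a readthrough gene. PRC1 had 0, 1 and 1, but part of its span is also shared with another gene. Positions in that part, such as chr15:90981858 (GAACT, 4 of 96 reads substituted in WT), were not counted. The kinases AURKA (4, 2 and 1), TTK (1, 2 and 3) and AURKB (2, 0 and 2) and the cytokinesis proteins ANLN (4, 4 and 5), ECT2 (4, 2 and 2), KIF20A (4, 1 and 5) and KIF23 (2, 0 and 3) had few. The widest gap between the 2 KO libraries was that of CENPE, at 4 and 17.

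**Figure D2:**
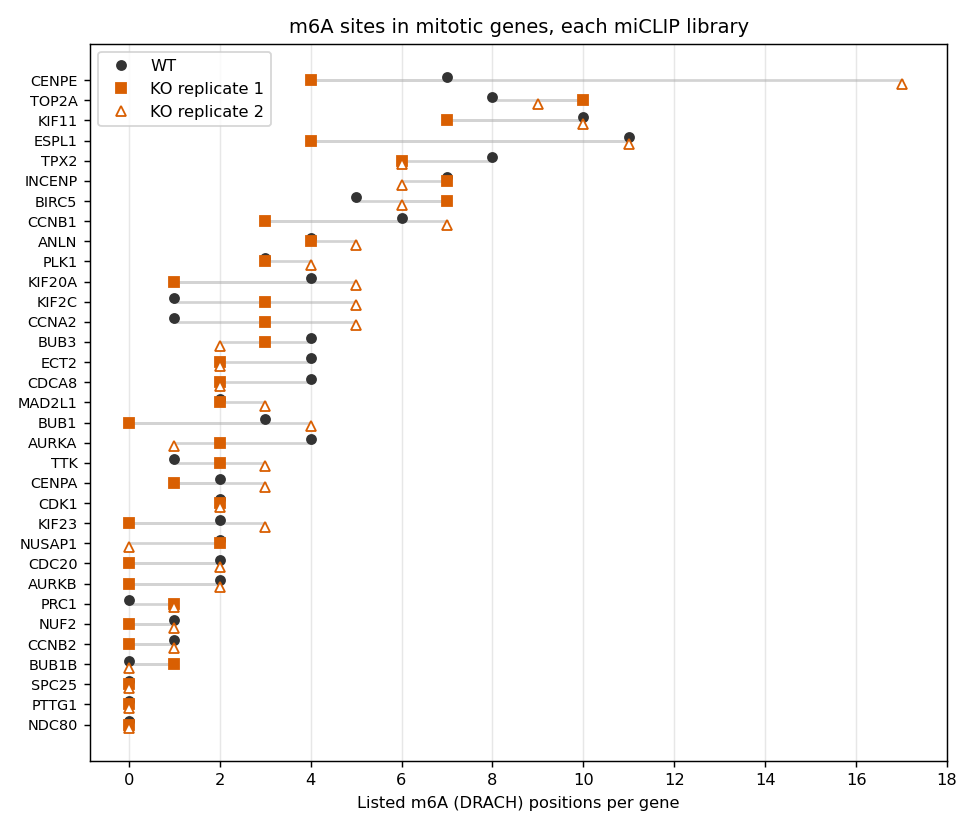
Listed m6A positions per mitotic gene. The horizontal axis counts DRACH positions, with a black circle for WT, a filled square for KO replicate 1 and an open triangle for KO replicate 2, and a grey line joins each gene's values. CENPE runs from 4 to 17 between the 2 KO libraries, and 3 genes have none.

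Individual positions were poorly repeated between lists. Of 238 positions seen in any list 24 were in all 3, 64 in WT alone and 127 in KO alone, the latter from 2 libraries. Of the WT positions in mitotic genes, KO replicate 1 also listed 28.8% (exact interval 20.6 to 38.2%) and KO replicate 2 listed 35.1% (26.3 to 44.8%), against 37.4% and 42.4% of all WT positions. Between the KO libraries, 43.9% of the positions of replicate 1 in mitotic genes were listed in replicate 2, against 43.9% of all. The GGAC core, the most common form of DRACH, made up 21.6% of the WT positions in mitotic genes (14.4 to 30.4%) and 34.0% of all WT positions. In the KO libraries it made up 32.9% and 25.0%, against 34.4% in both over all positions. Positions within 1000 nt of the gene end made up 25.2%, 35.4% and 21.9% in mitotic genes, against 19.0%, 19.4% and 19.7% of positions in a single protein-coding gene.

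The 10 positions with most substituted reads in WT were listed in all 3 libraries. Because they were chosen by their counts in the 1 WT library, their WT shares may be raised by the choice. A lower share in KO at such a position is therefore not evidence of lost m6A. In TOP2A the position chr17:40389473 (AGACT, minus strand, 948 nt from the gene end) had 24 of 160 reads substituted in WT (15%, exact interval 9.85 to 21.5%), 20 of 156 in KO replicate 1 (12.8%) and 16 of 172 in KO replicate 2 (9.30%). In TPX2 the position chr20:31801235 (GGACT) had 21 of 271 (7.75%), 21 of 242 (8.68%) and 35 of 365 (9.59%). In PLK1 the position chr16:23690084 (GGACT) had 20 of 167 (12.0%), 7 of 98 (7.14%) and 20 of 211 (9.48%). The intervals of WT and KO overlapped at each of these, which is not a test of a difference.

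CCNB1, the cyclin that activates CDK1, held 2 of the 10 positions with most substituted reads in WT. Shares were lower in both KO libraries at one and higher at the other. At chr5:69175053 (AAACT) the share was 10.2% in WT (13 of 128), 6.10% in KO replicate 1 (5 of 82) and 3.31% in KO replicate 2 (5 of 151). At chr5:69175453 (GGACT) it was 5.46% in WT (10 of 183), 8.64% (14 of 162) and 11.2% (32 of 286). Their exact intervals overlapped between WT and each KO library, which does not show that the shares are equal. In MAD2L1 the position chr4:120060121 (TGACT) had 7.46%, 4.81% and 4.65% of 201, 208 and 301 reads. In AURKA the position chr20:56370072 (TGACT) had 4.61%, 5.33% and 5.03% of 217, 150 and 298 reads.

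In CCNA2 the position chr4:121817627 (AGACT) had 11.4% of 79, 16.3% of 92 and 11.9% of 135 reads substituted. In BUB3, the checkpoint protein that recruits BUB1 to kinetochores, chr10:123162723 (GGACT) had 10% of 90, 8.85% of 113 and 12.7% of 181. In KIF2C chr1:44767243 (GAACT) had 18.6% of 43, 26.1% of 46 and 19.0% of 63, the highest share of the 10 positions in each library. A position in BIRC5, named after its values were seen, was read as deeply but substituted less in WT: at chr17:78224410 (TGACT) the share was 2.26% of 221 reads in WT (exact interval 0.74 to 5.20%), 7.69% of 130 in KO replicate 1 (3.75 to 13.7%) and 7.56% of 238 in KO replicate 2 (4.54 to 11.7%). The WT interval overlapped both others, which does not show that the shares are equal, and the difference was not tested. Over the 24 positions in all 3 lists, 7.26% of reads were substituted in WT (209 of 2880, interval 6.34 to 8.27%), 8.41% in KO replicate 1 (7.32 to 9.60%) and 7.28% in KO replicate 2 (6.48 to 8.13%). Over all positions shared by the 3 lists the shares were 6.46%, 6.43% and 6.30%. Choosing positions listed in every library leaves out those lost or gained, so these shares describe what stayed.

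**Figure D3:**
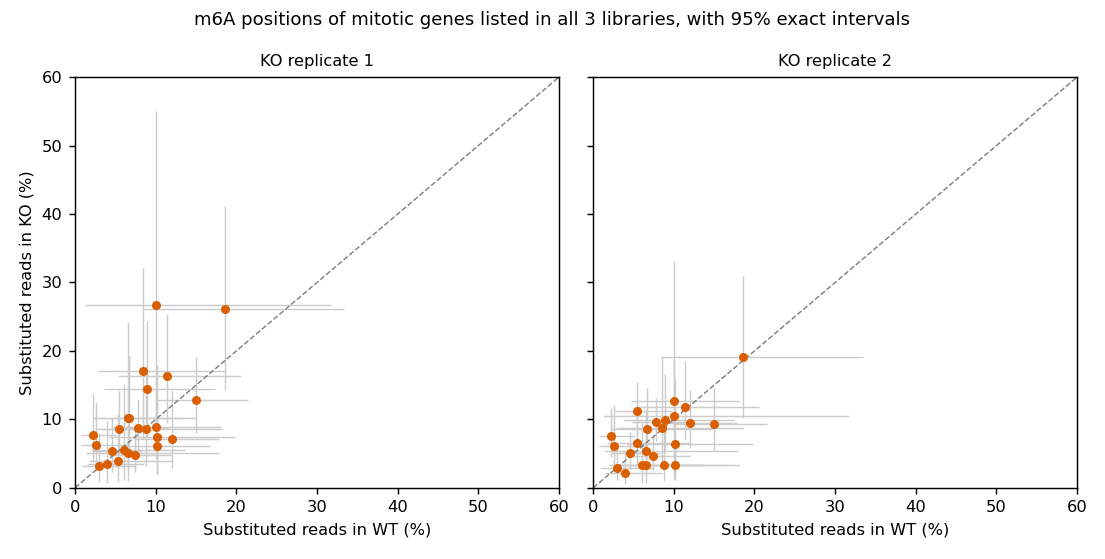
Share of substituted reads at the 24 m6A positions of mitotic genes listed in all 3 libraries. Each point is 1 position, with WT on the horizontal and a KO replicate on the vertical axis in percent, bars are exact 95% intervals and the dashed line marks equality. Points lie on both sides of the line in both panels, and KIF2C has the highest WT share, at 18.6%.

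Positions inside the m6Am regions themselves were rare. CENPA had 1 in WT (GGACC at chr2:26786140, 2 of 4 reads substituted) and CCNA2 1 in KO replicate 2 (GAACT at chr4:121823905, 4 of 25 reads). KO replicate 1 had none in the 13 regions.

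The input RNA libraries held 4511687 to 5960674 counts, and on the leading principal component WT replicate 1 lay far from all others (-40.2 against 2.22 to 16.3). The fragment table lists 785 genes and held 17665 to 124580 counts, fewest in WT replicate 1. No 2 replicates were as close as counting noise alone would make them (chi-square per degree of freedom 2.70 to 19.9). Of the lineage markers only VIM could be matched to a symbol in the RNA tables, at 378 and 341 CPM (counts scaled to library size) in WT and 344 to 372 CPM in KO, so the labelled cell type could not be checked further. Input RNA is a bulk measure, in which fewer cells in mitosis and less RNA per cell cannot be told apart.

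None of the 13 mitotic genes measured in the input RNA passed edgeR's quasi-likelihood test of KO against WT (adjusted p under 0.05), a test that called 0.0342% of 14629 genes (5, all lower in KO). DESeq2 also called 0 of the 13. At an unadjusted p under 0.05 the test gave 1 of the 13, CDK1, against 9.3% of all genes. Log2 fold changes were above 0 in 8 of the 13 and below in 5, with a median of 0.04, against 47% above 0 and a median of -0.02 over all genes. All 3 KO libraries lay above both WT libraries in CDK1, CCNB1 and CDC20 and in none did all lie below, where 10.7% of all genes had the first pattern and 13.5% the second.

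The 3 mitotic cyclins and CDK1 had log2 fold changes above 0 with all libraries in. Without WT replicate 2 CCNA2 turned to -0.011 and CCNB2 to -0.082, and without KO replicate 1 CCNB2 turned to -0.035. CDK1 RNA stood at 27.3 and 44.2 CPM in WT and at 55.9, 54.7 and 49.6 CPM in KO, so the groups did not overlap. Its mean was 35.7 ± 12.0 CPM (SD, n = 2) in WT and 53.4 ± 3.35 CPM (SD, n = 3) in KO, a log2 fold change of 0.58 (SE 0.20, edgeR adjusted p = 0.488). The 2 WT libraries were farther from each other than WT replicate 2 was from any KO library. Without WT replicate 1 the log2 fold change was 0.27, and without WT replicate 2 it was 1.002 with an adjusted p of 2.36e-05. CCNB1 stood at 224 and 244 CPM in WT and 277, 248 and 275 CPM in KO (log2 fold change 0.19, SE 0.10, edgeR adjusted p = 0.560). Its libraries did not overlap either, by a narrow margin. CCNA2 (92.4 and 80.3 CPM in WT, 97.3, 92.4 and 78.8 CPM in KO) and CCNB2 (84.9 and 67.4 CPM in WT, 87.9, 75.3 and 71.9 CPM in KO) had log2 fold changes of 0.05 and 0.04, and their groups overlapped.

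The kinases and checkpoint genes had log2 fold changes between -0.10 and 0.09. PLK1, which matures centrosomes and drives mitotic entry, stood at 297 and 329 CPM in WT and 302, 315 and 339 CPM in KO. AURKB stood at 216 and 232 CPM in WT and 199, 206 and 225 CPM in KO (log2 fold change -0.10, SE 0.10). CDC20 stood at 235 and 244 CPM in WT and 246, 261 and 258 CPM in KO, which did not overlap but differed by a log2 fold change of only 0.09. BUB3 stood at 246 and 216 CPM in WT and 232, 220 and 230 CPM in KO. The 95% intervals of these 4 genes ran from -0.30 to 0.28 on the log2 scale at the widest.

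Among the remaining genes, BIRC5 stood at 439 and 447 CPM in WT and 416, 409 and 470 CPM in KO. ESPL1 stood at 445 and 461 CPM in WT and 404, 473 and 446 CPM in KO, a log2 fold change of -0.04. NUSAP1 stood at 48.3 and 51.3 CPM in WT and 51.1, 67.4 and 51.4 CPM in KO (log2 fold change 0.19, SE 0.16), with KO replicate 2 alone standing higher. In TOP2A and PRC1 the 2 WT libraries lay on either side of all KO libraries. TOP2A stood at 43.1 and 84.5 CPM in WT and 63.7, 71.6 and 73.5 CPM in KO, and PRC1 at 18.2 and 7.43 CPM in WT and 9.99, 11.3 and 10.5 CPM in KO. Their log2 fold changes of 0.13 (SE 0.22) and -0.29 (SE 0.31) therefore turned with the WT library kept. Leaving out WT replicate 1 gave -0.28 and 0.51, whereas leaving out WT replicate 2 gave 0.72 and -0.75, which passed the test (adjusted p of 0.000821 and 0.0352), when 1912 genes did.

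**Figure D4:**
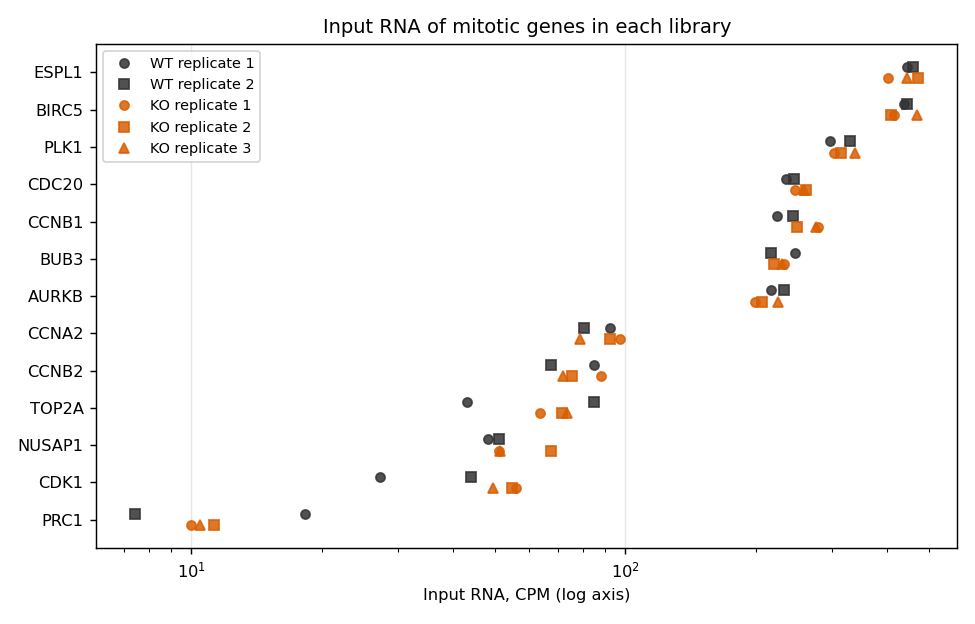
Input RNA of the 13 mitotic genes that could be matched, in CPM on a log axis, 1 point per library (black WT, orange KO, shape by replicate). Levels are not corrected for transcript length, so genes are not to be compared with each other. In CDK1 both WT points lie left of all KO points, and in TOP2A and PRC1 the WT points lie on either side of them.

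Other genes of the cell cycle did not pass the test either. Of 83 other mitotic genes 12 could be measured, of which 10 had log2 fold changes above 0 (median 0.26) and 0 passed the test. HMMR, a spindle-associated protein, had a log2 fold change of 0.49 (5.04 and 5.76 CPM in WT, 7.11, 8.27 and 7.37 CPM in KO) and ZWILCH, a kinetochore protein of the checkpoint, 0.42 (13.7 and 31.6 CPM in WT, 27.6, 33.3 and 29.7 CPM in KO). The 2 below 0 were SMC1A, a cohesin subunit, at -0.38 (624 and 385 CPM in WT, 373 to 400 CPM in KO) and NCAPD2, a condensin subunit, at -0.04. In ZWILCH and SMC1A, WT replicate 1 lay far from WT replicate 2, which was within the KO range. Of 34 S phase genes 10 could be measured, 6 above 0 with a median of 0.05. They ranged from CDT1, which licenses replication origins, at 0.19 and POLA1, a DNA polymerase subunit, at 0.18 to MCM3, of the replicative helicase, at -0.06 and RRM1, of ribonucleotide reductase, at -0.13. Of the arrest genes only CDKN2A was matched, at 118 and 129 CPM in WT and 136 to 159 CPM in KO (log2 fold change 0.29, edgeR adjusted p = 0.514).

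In the ribosome-protected fragments 0 of 11 mitotic genes passed edgeR's test, as did 0 of all 785 genes (0%), and DESeq2 called 0 of the 11. At an unadjusted p under 0.05 the count was 0 of 11, against 3.82% of all genes (30). Every gene listed in that table reached 10 or more counts in each WT library, so these 11 passed a filter on WT counts and do not stand for all 33. Log2 fold changes were above 0 in 5 and below in 6, with a median of -0.12, against 50.1% above 0 and a median of 0.000315 over all genes. Without WT replicate 2, 8 were above 0 and the median was 0.062, and without WT replicate 1, 3 were above 0. WT replicate 1 held 10 to 23 fragments per mitotic gene.

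The checkpoint pair BUB3 and CDC20 had more fragments in every KO library than in both WT libraries, a pattern that 10.6% of the 785 genes had. BUB3 stood at 645 and 761 CPM of the listed genes in WT and 864, 1773 and 857 CPM in KO (log2 fold change 0.66, SE 0.36, edgeR adjusted p = 0.915). KO replicate 2 was the high library, and without it the log2 fold change was 0.26. CDC20 stood at 537 and 453 CPM in WT and 592, 623 and 656 CPM in KO (log2 fold change 0.36, SE 0.34). No mitotic gene had all KO libraries below WT, a pattern of 10.4% of genes.

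Fragments of CDK1 stood at 860 and 1262 CPM in WT and 818, 383 and 958 CPM in KO (log2 fold change -0.58, SE 0.35, edgeR adjusted p = 0.915), and without WT replicate 2 the log2 fold change was -0.21. KO replicate 2 was low for CDK1 and also for PLK1 (645 and 955 CPM in WT, 818, 335 and 773 CPM in KO), and the groups overlapped in both. CCNB1 stood at 1236 and 1829 CPM in WT and 1542, 1845 and 1782 CPM in KO, and CCNA2 at 860 and 1084 CPM in WT and 763, 959 and 908 CPM in KO. CCNB2 stood at 537 and 308 CPM in WT and 319, 312 and 202 CPM in KO, from 10 to 41 counts per library. These 3 cyclins overlapped between the groups.

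The 4 remaining genes with fragments also overlapped. AURKB stood at 537 and 550 CPM in WT and 529, 455 and 723 CPM in KO, and NUSAP1 at 537 and 550 CPM in WT and 561, 431 and 487 CPM in KO. PRC1 stood at 645 and 793 CPM in WT and 716, 455 and 807 CPM in KO. TOP2A stood at 914 and 1489 CPM in WT and 1176, 1630 and 1025 CPM in KO. Their log2 fold changes lay between -0.14 and 0.06.

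Translational efficiency, the change in fragments relative to input, was tested as an interaction over the 10 libraries of both kinds. The log2 ratios given per library below pair fragment and input libraries by replicate number, an assumption that this test does not use. Whether the groups overlap in these ratios can depend on that pairing. Of the 11 mitotic genes 0 passed edgeR's test, as did 0 of 785 genes (0%), and DESeq2 called 0 of the 11. At an unadjusted p under 0.05 the test gave 1 of 11, CDK1, against 6.75% of all genes (53). Estimates were above 0 in 4 and below in 7, with a median of -0.10, against 50.6% above 0 and a median of 0.01 over all genes. Without WT replicate 2, 7 were above 0 and the median was 0.058.

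All 4 cyclin and CDK1 genes had estimates below 0, and both checkpoint genes had estimates above 0. The first pattern rested on single libraries: without WT replicate 2 CCNB1 stood at 0.22 and CCNA2 at 0.058, and without KO replicate 1 CCNB1 stood at 0.032. CDK1 had log2 ratios of fragment to input CPM of 2.70 and 2.54 in WT and 1.64, 0.56 and 2.03 in KO, so every KO library lay below both WT libraries, as in 11.2% of all genes. Its estimate was -1.13 (SE 0.45, 95% interval -2.09 to -0.16, unadjusted p = 0.0257, adjusted p = 0.615 in edgeR). In the authors' deposited table CDK1 stood at -1.14 (SE 0.51, adjusted p = 0.487), the value of rank 20 of 765 from the lowest. Leaving out any 1 library gave estimates from -1.38 to -0.85, none of which passed the test. CKS2, a small CDK-binding protein, is named beside it after its values were seen: the authors' deposited table gives it -1.09, rank 24 of 765.

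The other cyclins lay nearer 0. CCNB2 had log2 ratios of 0.41 and -0.09 in WT and -0.36, -0.19 and -0.73 in KO (estimate -0.44, SE 0.44), which did not overlap. CCNA2 stood at 0.97 and 1.47 in WT and 0.74, 1.13 and 1.29 in KO (-0.24, SE 0.31), and CCNB1 at 0.22 and 0.62 in WT and 0.25, 0.65 and 0.47 in KO (-0.10, SE 0.23). Both overlapped between the groups.

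BUB3 had log2 ratios of -0.85 and -0.47 in WT and -0.33, 0.77 and -0.33 in KO (estimate 0.68, SE 0.39, edgeR adjusted p = 0.710), and the authors' deposited table also gives 0.68. Without KO replicate 2 the estimate was 0.29. CDC20 stood at -1.05 and -1.39 in WT and -0.95, -0.98 and -0.88 in KO (0.32, SE 0.27). Every KO library lay above both WT libraries in both genes, as in 10.6% of all genes. PLK1 stood at -1.12 and -0.74 in WT and -0.78, -2.14 and -1.03 in KO (-0.32, SE 0.35), and NUSAP1 at 1.22 and 1.13 in WT and 1.22, 0.43 and 1.01 in KO (-0.27, SE 0.38). For both the low KO library was replicate 2.

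The other m6Am-classed genes had estimates on either side of 0. AURKB stood at -0.93 and -1.03 in WT and -0.81, -1.09 and -0.54 in KO (estimate 0.19, SE 0.31). TOP2A stood at 2.14 and 1.85 in WT and 1.97, 2.25 and 1.57 in KO (-0.10, SE 0.44), and PRC1 at 2.85 and 4.34 in WT and 3.85, 3.02 and 3.95 in KO (0.17, SE 0.54). With CCNA2, 2 of the 4 m6Am-classed genes were above 0 and 2 below, a split that depended on the WT library kept: PRC1 was at -0.69 and TOP2A at 0.082 without WT replicate 1, and PRC1 at 0.87 and CCNA2 at 0.058 without WT replicate 2. The 2 largest estimates of the set, those of CDK1 and BUB3, belonged to genes that the authors class as starting with A. For CDK1 that class stands beside the m6Am region over its second start.

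**Figure D5:**
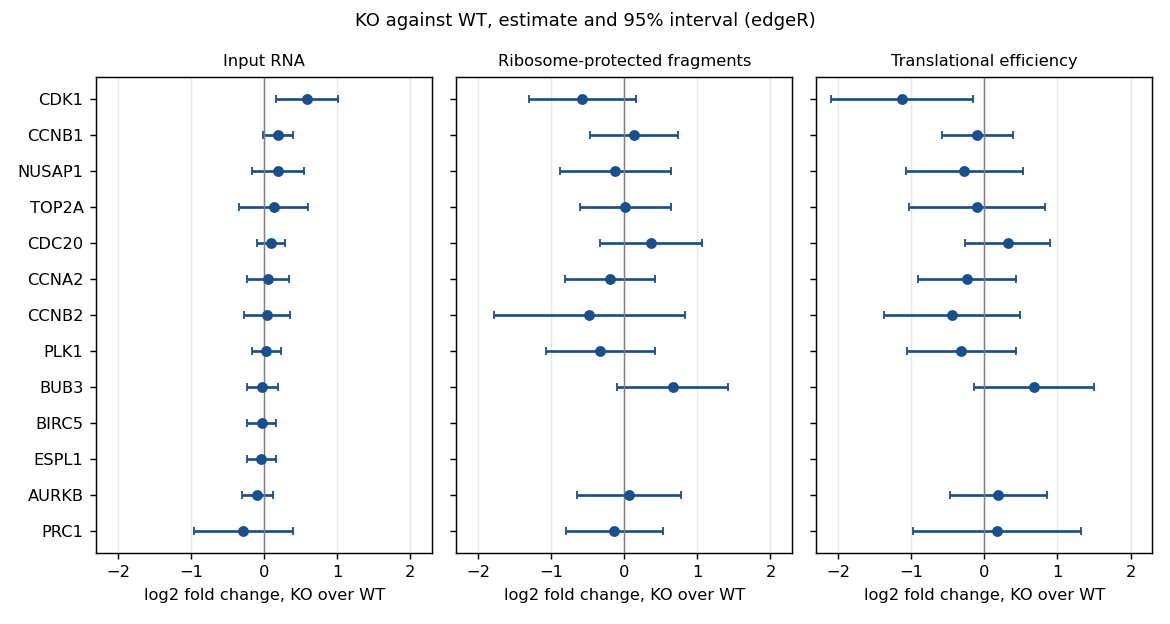
Log2 fold change of KO over WT in input RNA, ribosome-protected fragments and translational efficiency for each matched mitotic gene (point) with its edgeR 95% interval (bar). BIRC5 and ESPL1 have no fragment values. In CDK1 the input estimate of 0.58 lies above 0 and the efficiency estimate of -1.13 below it, and every other interval crosses 0.

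Of the mitotic genes, BIRC5 and ESPL1 were in the authors' deposited SLAM-seq table, which gives 1 ratio of KO over WT per gene with no error, so no test was made. SLAM-seq labels RNA with a uridine analogue and follows the loss of label during the chase, and the table does not state which quantity was divided. In the authors' deposited table BIRC5, the passenger complex subunit classed as m6Am, had a ratio of 2.68, and 10 of the 666 genes, BIRC5 included, were at or above it. Among the 96 m6Am-classed genes 2 were at or above that ratio, and their median was 0.89. ESPL1, classed as A, had a ratio of 0.87, close to the table's median of 0.89, and 39.6% of the genes had a ratio above 1. In the same deposited table the other mitotic genes were ZWILCH at 1.72, HMMR at 1.23, SMC2, a condensin subunit, at 0.90, KNTC1, a checkpoint protein of the kinetochore, at 0.86, BORA, an activator of AURKA, at 0.81, and CENPI, a centromere protein, at 0.51. Input RNA of BIRC5 differed by a log2 fold change of -0.04 (SE 0.09), its 95% interval reaching from -0.23 to 0.16.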

How the data were processed

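HEK293T libraries of PCIF1 KO and WT cells were analysed from the authors' deposited files. The submitters' processing notes name BWA 0.7.17, STAR, bedtools and deepTools, with GRCh38, hg38 and mm10 as builds, and the role of each is not given in the sources used here. Unnormalized read counts per Ensembl gene were deposited by the authors for input RNA and fragments. Their deposited efficiency table holds log2 fold changes, standard errors, p-values, a Wald score and a mean normalized signal, under DESeq2's column names per the file headers. Their deposited SLAM-seq table holds a KO over WT ratio. The deposited m6A lists hold counts of substituted reads and reads per position (at least 2 substituted), and the m6Am list a score per region.

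For the count tables, edgeR 4.0.16 (R 4.3.3) was run with TMM, filterByExpr on the input and a robust two-sided quasi-likelihood F test, adjusted by Benjamini-Hochberg over each whole table, with DESeq2 1.42.0 as an alternative. Per-library log2 ratios used a prior count of 2 and set each fragment library against the input library of the same genotype and replicate number. On simulated data with 200 genes changed by 1 on the log2 scale, the script recovered 75.5% in the input (14442 genes), 84% in the fragments (785 genes) and 58% in efficiency (785 genes). Every simulated gene had the same spread between libraries and no library lay apart, unlike the real libraries. These shares therefore do not give the power to detect a change in the real data. Positions were assigned by gene spans of the RefSeq table of GRCh38, without strand for m6A. Intervals for shares are exact (Clopper-Pearson, 95%). They cover counting error only, and the sources used here do not state whether PCR copies were separated from independent molecules.

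The 33 genes and the lists were chosen with earlier results of these data known. All 33 were to be named, with values per library for those in the RNA tables and the 10 positions with most substituted reads in WT. Of each other list, the 2 genes with the largest rise and the 2 with the largest fall in the input were named, at a mean of at least 5 CPM. The level of PCIF1 and the MEF lists were not analysed here.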

Additional observations from a re-analysis of the deposited data

How the results depend on the processing

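Over 117 alternative values of single mitotic genes in the input, 101 kept their direction and side of the threshold, as did 90 of 99 in the fragments and 92 of 99 in efficiency. The count of called mitotic genes in the input was 0 and, leaving out 1 library at a time, 0 to 3, the 3 being CDK1, PRC1 and TOP2A without WT replicate 2. The count of all called input genes was 5, with DESeq2 15, with no filter 152, and leaving out 1 library 2 to 1912 (53 without WT replicate 1). For fragments it was 0, leaving out 1 library 0 to 3, and for efficiency 0, with DESeq2 2, leaving out 1 library 0 to 14. The number of mitotic genes above 0 ran from 3 to 8 in the fragments and from 4 to 7 in efficiency. Without WT replicate 2 their medians turned from -0.12 to 0.062 and from -0.10 to 0.058. The cause was not tested.

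WT and KO share replicate numbers 1 and 2, which need not pair samples. The deviations of WT replicate 1 and KO replicate 1 correlated at 0.16 in the input and 0.19 in the fragments. Those of WT replicate 2 and KO replicate 2 correlated at -0.0033 and 0.21. For the unlike numbers WT replicate 2 and KO replicate 3 the values were 0.15 and -0.093. With 2 WT libraries the WT deviations mirror each other, so these values do not settle whether samples were paired. With the replicate block 3 input genes and 6 fragment genes were called, none of them a gene of the set, and 2 estimates near 0 turned sign, PLK1 in the input to -0.018 and AURKB in the fragments to -0.16.

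Single genes turned direction when 1 library was left out. In the input the log2 fold changes then ran from -0.011 to 0.16 in CCNA2, -0.084 to 0.070 in BUB3, -0.093 to 0.034 in ESPL1, -0.082 to 0.22 in CCNB2, -0.75 to 0.51 in PRC1, -0.046 to 0.13 in PLK1, -0.28 to 0.72 in TOP2A and -0.083 to 0.0062 in BIRC5. In the fragments they ran from -0.24 to 0.46 in TOP2A, -0.094 to 0.47 in CCNB1, -0.33 to 0.0091 in CCNA2, -0.54 to 0.056 in PLK1, -0.13 to 0.17 in AURKB and -0.28 to 0.062 in PRC1. In efficiency they ran from -0.25 to 0.082 in TOP2A, -0.19 to 0.22 in CCNB1, -0.45 to 0.058 in CCNA2, -0.60 to 0.028 in PLK1 and -0.69 to 0.87 in PRC1.

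The WT m6A positions in the 33 genes numbered 111, 29 with at least 5 substituted reads and 7 with at least 10, so most rest on few reads, and 120 with shared gene spans kept. The regions numbered 13, and 7 at a score of at least 3, against 3.91% of protein-coding genes.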

Other observations

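The start letter in the authors' class tables can be set against the base that RefSeq gives at the same place, taken as position 81 of the deposited windows of 161 nt. In 356 of 356 plus-strand genes compared, the class letter was the transcript's base, and in 49 of 49 minus-strand genes it was the complement. Of these minus-strand genes 16 are classed T and read A in the direction of transcription. Of the mitotic genes only CCNB1 and CDK1 have a window of 161 nt, and both lie on the plus strand, so no class given for them in the text is touched.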
